A study of Homo sapiens with 6 samples.

Results

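Rab GTPases are small proteins of the RAS superfamily that direct membrane traffic. Each Rab cycles between a GTP-bound form, which sits on a membrane and recruits effectors such as tethers and motor proteins, and a GDP-bound form, which a GDP dissociation inhibitor extracts into the cytosol. Different Rabs mark different compartments, so the family is usually grouped into Rabs of the secretory route, of the endocytic route and of recycling from endosomes to the surface. In epithelial tumours several of them are studied for their part in the surface delivery of adhesion proteins and receptors.

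The Rab genes were chosen by their platform gene symbol, which had to be RAB with a number and an optional letter and digit, so effectors and regulators were not members. The rule found 62 genes with 88 probes, among 18852 named genes on the array, and all 62 are protein coding in the RefSeq gene table. Of these, 39 genes had at least 1 probe that passed the filter on dim probes, which asked for 3 or more of the 6 arrays with a detection p-value below 0.01. All statements on change below concern those 39. By a grouping of known routes, 16 of the 39 were secretory, 12 endocytic, 7 recycling and 4 of another or less settled route.

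The cells were IGROV-1, an established human ovarian carcinoma line, grown for 24 h in culture medium with an equal volume of mouse ascites. Every ascites came from mice bearing IGROV-1 cells in the peritoneum. In the first group (saline ascites, 3 samples) the donor mice had received saline, and in the second (CpG ascites, 3 samples) the phosphorothioate oligonucleotide ODN1826 at 20 µg per mouse, an agonist of Toll-like receptor 9 whose unmethylated CpG motifs mimic bacterial DNA. Mice were dosed once or on consecutive days, and the labels do not say which ascites had which schedule, nor whether a group's ascites or cultures were separate or drawn from a pool. P-values therefore cover sample-to-sample spread of possibly technical origin, and 3 arrays per group limit the precision of every value.

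Total RNA was read on 1-colour Illumina bead arrays, with a mean probe intensity of 586.8 to 787.6 per array and 13303 to 13835 probes above background. CpG ascites replicate 1 stood apart: across probes it correlated with the other arrays at 0.948 to 0.958, and those 5 with each other at 0.978 to 0.992. Of 11 ovarian carcinoma markers, 6 were above background on all arrays (PAX8, EPCAM, KRT19, KRT7, FOLR1 and MUC1), while WT1, KRT8 and MUC16 were on none. Their summed normalized intensity was 20690 to 22210 in saline ascites and 23090 to 25510 in CpG ascites. All 6 fibroblast markers and 5 of 6 leukocyte markers on the array were above background on no array. Of 4 mesothelial markers, 0 were above background on all arrays, and CALB2 and LRRN4 were on none. The summed intensity of the mesothelial markers was 308.2 to 322.4 in saline ascites and 251.1 to 352.8 in CpG ascites. Of 4 endothelial markers only VWF was above background on all arrays and CDH5 and KDR were on none, and their summed intensity was 806.4 to 992.1 in saline ascites against 521.3 to 664.9 in CpG ascites. The part of these marker differences in the Rab values was not tested.

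No Rab gene passed the test between CpG and saline ascites. Of the 39 genes, 16 had higher (41%, against 51.6% of all genes) and 23 lower values (59%, against 48.4%) in CpG ascites. With limma and Benjamini-Hochberg adjustment over all 13713 probes kept, 0 of 51 Rab probes were higher (background over all probes 0%) and 0 lower (0%), with a smallest adjusted p of 0.18, for RAB26. Without CpG ascites replicate 1 there were again 0 Rab probes in either direction, against 0.0219% of all probes higher and 0.131% lower, and a smallest adjusted p of 0.115. At an unadjusted p under 0.05 in limma, 1 of the 39 genes was higher, RAB26, or 2.56% against 6.66% of all genes. RAB33B and RAB10 were lower, 5.13% against 4.92% of all genes. Without CpG ascites replicate 1, 3 were higher (RAB26, RAB29 and RAB35), against 6.25% of all genes, and 1 lower (RAB33B), against 6.74%. These shares lie near or below those of all genes, so the counts are no result about the family.

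The median log2 change of the 39 genes was -0.04, beside 0.01 over all 9211 named genes measured. Without CpG ascites replicate 1 the Rab median was -0.0078, with 21 lower values. The 95% intervals of the log2 changes, not adjusted for the number of genes, were taken from the main fit with 1 probe per gene. All lay within 1 on either side of 0, so that each of the 39 intervals left out a 2-fold difference under the main normalization. Over all genes 91.4% of intervals did so. The highest end was 0.96, for RAB26. Its change under another normalization, median scaling, was 0.73 ± 0.21 (SE), and the bound is not claimed for that scaling. The second kept probe of RAB4B had a wider interval, -1.12 to 0.27, which held a 2-fold lower value.

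**Figure D1:**
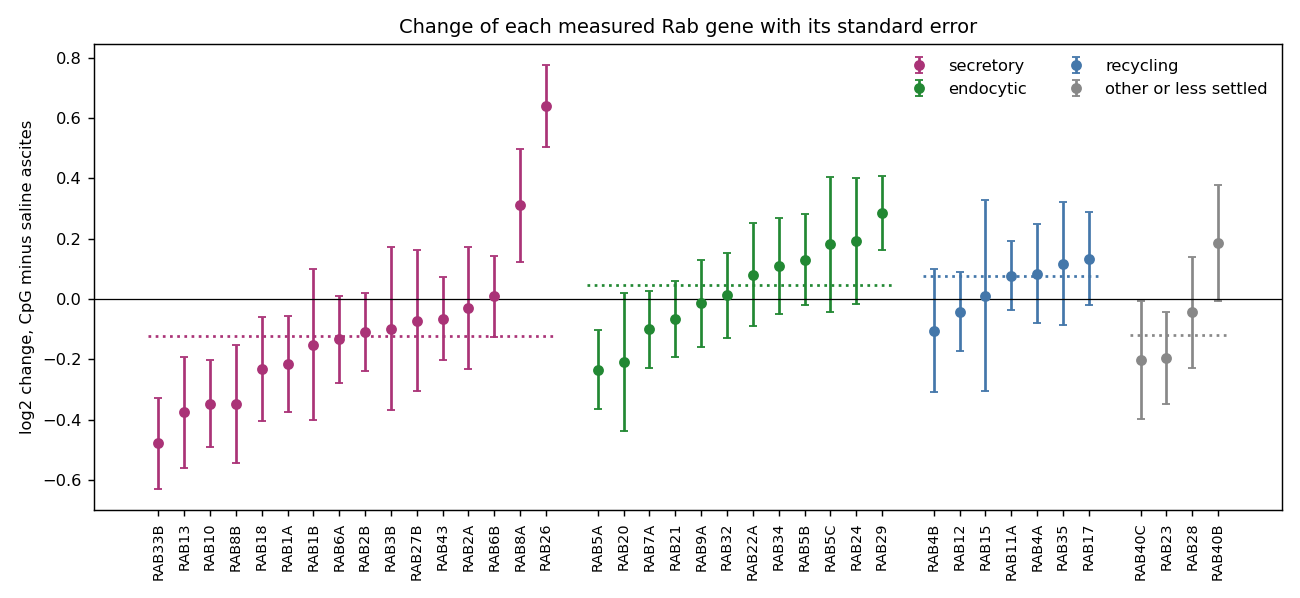
Log2 change (CpG minus saline ascites) of the 39 measured Rab genes, 1 probe per gene, with the standard error as bars and the median of each route as a dotted line. RAB26 lies highest at 0.64 and RAB33B lowest at -0.48, and the 95% intervals of 3 genes (RAB26, RAB33B and RAB10) leave out 0.

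In 5 Rab genes the groups did not overlap. RAB26 and RAB29 were higher on all 3 CpG arrays, 5.13% of the 39 genes against 11.1% of all genes, and RAB33B, RAB10 and RAB5A were lower, 7.69% against 9.3% of all genes. RAB26, a Rab of secretory granules and synaptic vesicles, had log2 intensities of 7.86, 7.78 and 7.91 in saline ascites and 8.69, 8.40 and 8.38 in CpG ascites. Every CpG array lay above every saline array, and the highest was CpG ascites replicate 1. The log2 change was 0.64 ± 0.14 (SE), a 1.56-fold higher intensity, with a limma adjusted p of 0.18. Without CpG ascites replicate 1 it was 0.54 ± 0.12, and over all settings tried it ran from 0.48 to 0.73.

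RAB33B, a Golgi Rab that also binds the autophagy protein ATG16L1, had 10.35, 10.30 and 10.22 in saline ascites and 9.74, 10.07 and 9.62 in CpG ascites. All CpG arrays were below all saline arrays, with CpG ascites replicate 2 nearest to them. Its log2 change was -0.48 ± 0.15 (SE) with a limma adjusted p of 0.286, and -0.44 ± 0.16 without CpG ascites replicate 1. Its closest relative, RAB33A, was above background on no array.

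RAB10, which moves vesicles from the Golgi and endosomes to the plasma membrane and is best known for the insulin-driven delivery of glucose transporters, had 13.15, 12.90 and 12.84 in saline ascites and 12.54, 12.79 and 12.53 in CpG ascites. The groups were apart by little, between saline ascites replicate 3 and CpG ascites replicate 2. The log2 change was -0.35 ± 0.14 (SE) with a limma adjusted p of 0.377, and -0.31 ± 0.15 without CpG ascites replicate 1.

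RAB29, a relative of RAB32 and RAB38 that recruits the kinase LRRK2 to membranes, had 10.44, 10.50 and 10.27 in saline ascites and 10.65, 10.73 and 10.69 in CpG ascites. The CpG arrays lay close together above the saline arrays, with an SD of 0.04 against 0.12. The log2 change was 0.28 ± 0.12 (SE) with a limma adjusted p of 0.391. RAB5A, which drives fusion of early endosomes, had 9.91, 9.94 and 9.80 in saline ascites and 9.65, 9.50 and 9.80 in CpG ascites. CpG ascites replicate 3 and saline ascites replicate 3 nearly coincided, and the log2 change was -0.23 ± 0.13 (SE) with a limma adjusted p of 0.485.

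**Figure D2:**
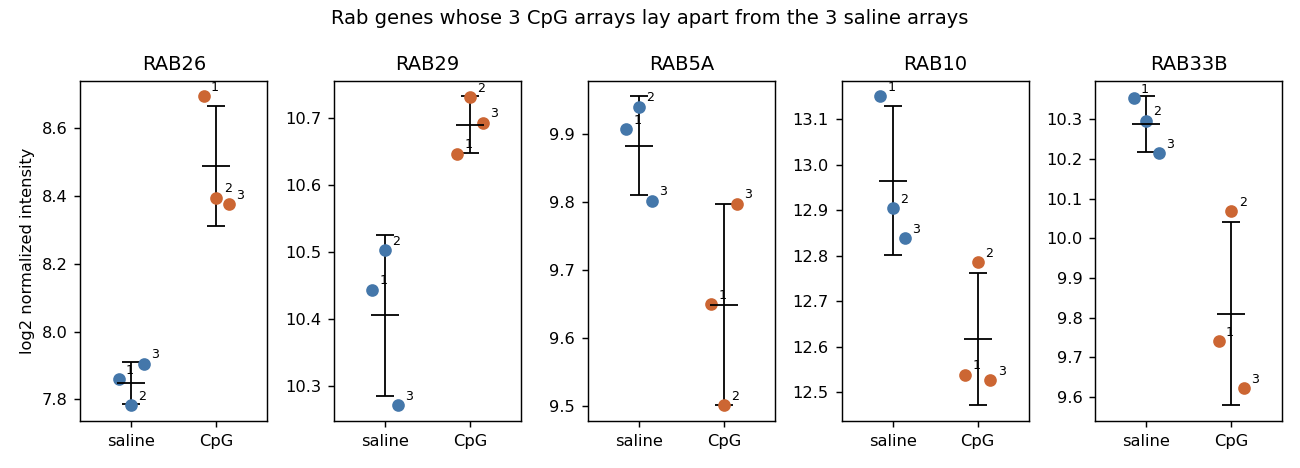
Log2 normalized intensity on each array for the 5 Rab genes whose groups did not overlap, with the replicate number beside each point and the mean ± SD of 3 arrays as black bars. The vertical axes differ between genes and do not start at 0. RAB26 shows the widest gap (saline arrays up to 7.91, CpG arrays from 8.38), and in RAB5A the groups almost touch.

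Among the 16 secretory Rab genes, 13 had lower and 3 higher values in CpG ascites, with a median log2 change of -0.12. The median deviation from the saline mean was -0.18, -0.03 and -0.13 on CpG ascites replicates 1, 2 and 3. The size of this median rests on single arrays: without CpG ascites replicate 1 it was -0.07, with 11 of 16 lower, and without CpG ascites replicate 2 it was -0.22. With median scaling, which moved the median of all genes from 0.01 to 0.09, it was -0.04 with 10 of 16 lower. Relative to the median of all genes it was -0.138 with that scaling and -0.132 without it. After RAB33B, the lowest value was that of RAB13, which brings proteins to tight junctions, with 7.11, 7.70 and 7.25 in saline ascites and 7.02, 6.79 and 7.12 in CpG ascites. CpG ascites replicate 3 lay above saline ascites replicate 1 there, and the log2 change was -0.38 ± 0.18 (SE).

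The RAB8 pair, which serves exocytosis from the Golgi and recycling endosomes and the growth of cilia, had values on opposite sides. RAB8A had 11.68, 11.28 and 11.60 in saline ascites and 12.05, 11.50 and 11.95 in CpG ascites, a log2 change of 0.31 ± 0.19 (SE). RAB8B had 10.08, 10.08 and 9.96 in saline ascites and 9.81, 10.00 and 9.27 in CpG ascites, a log2 change of -0.35 ± 0.20 (SE). In both genes the groups overlapped through CpG ascites replicate 2, and the difference between the genes was not tested. Of the 7 sets of Rab genes that share a number and had at least 2 members measured, 5 held values on both sides of 0, and the gap in the RAB8 pair, 0.658, was the widest of the 7.

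With 1 probe per gene, secretory Rabs between the endoplasmic reticulum and the Golgi and within the Golgi had log2 changes below 0, except RAB6B. Over all genes 48.4% of changes lay below 0, and the dimmer kept probe of RAB2A had 0.25 ± 0.12 (SE). The shared direction was not tested. The signs of RAB1B, RAB2A, RAB6B and RAB43 turned under some of the settings tried. RAB1A and RAB1B, of the step to the Golgi, had log2 changes of -0.22 ± 0.16 (SE) and -0.15 ± 0.25, and that of RAB1A was -0.064 without CpG ascites replicate 3. RAB1B had 6.83 on CpG ascites replicate 1 against 7.30 to 7.78 on the other arrays, and without that array its change was 0.12 ± 0.16. RAB2B and RAB2A, of traffic between the Golgi and the endoplasmic reticulum, had -0.11 ± 0.13 and -0.03 ± 0.20. RAB6A, of retrograde Golgi transport, had -0.13 ± 0.14 and its relative RAB6B 0.0090 ± 0.13. RAB6A has close copies, RAB6C and RAB6D, whose own probes were above background on no array, and whether the RAB6A probes tell them apart was not tested. RAB18, of lipid droplets and the endoplasmic reticulum, had -0.23 ± 0.17 and RAB43, a Golgi Rab, -0.06 ± 0.14. None of these passed the test.

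The Rabs of regulated exocytosis other than RAB26 varied among the CpG arrays. RAB3B had 6.80, 7.30 and 7.08 in saline ascites and 6.36, 7.20 and 7.33 in CpG ascites, where replicate 1 was not above background. RAB27B had 7.61, 7.67 and 7.94 in saline ascites and 7.97, 7.90 and 7.15 in CpG ascites, where replicate 3 was the low array. Their log2 changes were -0.10 ± 0.27 (SE) and -0.07 ± 0.23, and both turned in sign when 1 CpG array was left out. RAB3A, RAB3C and RAB3D were above background on no array. The RAB27B values come from 1 probe. Its other probes, annotated to a different transcript record, were above background on no array, at 4.84 to 5.64.

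Of the 12 endocytic Rab genes, 7 had higher and 5 lower values, with a median log2 change of 0.05, and 0.00016 without CpG ascites replicate 1, with 6 on each side. The RAB5 subfamily, the early endosome Rabs, had values on both sides of 0. Beside RAB5A, RAB5B had a log2 change of 0.13 ± 0.15 (SE) and RAB5C 0.18 ± 0.22. RAB5C had 11.24 on CpG ascites replicate 1 and 10.33 and 10.78 on replicates 2 and 3, against 10.55 to 10.69 in saline ascites, and without replicate 1 its change was -0.05. RAB7A, the Rab of late endosomes and lysosomes, had 12.34, 12.19 and 12.22 in saline ascites and 12.04, 12.29 and 12.13 in CpG ascites. Its change of -0.10 had a 95% interval of -0.40 to 0.20. RAB9A, which returns receptors from late endosomes to the Golgi, had -0.01 ± 0.14.

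RAB20, of phagosomes and known in other cells as a hypoxia-induced gene, had 6.51 on CpG ascites replicate 1, which was not above background, and 7.11 to 7.36 on the other 5 arrays. Its log2 change was -0.21 ± 0.23 (SE), or 0.06 ± 0.13 without that array, so its value rests on it. RAB24, linked to autophagy, showed the reverse, with 10.33 on CpG ascites replicate 1 and 9.56 to 9.90 elsewhere, and changes of 0.19 ± 0.21 with and -0.0070 ± 0.16 without that array. RAB34, of macropinosomes and cilia, had 0.11 ± 0.16, RAB22A, of endosomal tubules, 0.08 ± 0.17, RAB21, of integrin uptake, -0.07 ± 0.12, and RAB32, of lysosome-related organelles, 0.01 ± 0.14.

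Of the 7 recycling Rab genes, 5 had higher and 2 lower values, with a median log2 change of 0.08 and groups that overlapped in all 7. That median was 0.046 without CpG ascites replicate 1, 0.031 without CpG ascites replicate 2 and 0.037 without saline ascites replicate 2. RAB11A, the marker of the recycling endosome, was among the most even members, with 11.55, 11.53 and 11.52 in saline ascites and 11.68, 11.64 and 11.53 in CpG ascites. Its change of 0.08 had a 95% interval of -0.19 to 0.35. RAB35, of fast recycling to the surface, had 8.93, 8.89 and 8.80 in saline ascites and 8.53, 9.21 and 9.23 in CpG ascites. Its replicate 1 lay below all saline arrays and the other 2 CpG arrays above them, so the log2 change was 0.12 ± 0.20 (SE) with all arrays and 0.35 ± 0.12 without replicate 1 (limma adjusted p = 0.248). RAB17, of apical recycling in epithelia, had the same order, with 10.35, 10.39 and 10.24 in saline ascites and 10.18, 10.60 and 10.61 in CpG ascites, and changes of 0.13 ± 0.15 and 0.28 ± 0.12.

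RAB4A and RAB4B, of fast recycling from early endosomes, had log2 changes of 0.08 ± 0.16 (SE) and -0.10 ± 0.20, and RAB12, of transferrin receptor turnover, had -0.04 ± 0.13. RAB15, another Rab of the recycling endosome, was the most variable member, with 7.15, 7.71 and 8.12 in saline ascites and 8.26, 7.36 and 7.40 in CpG ascites. Its saline arrays alone spanned nearly the whole range. Its change was 0.01 ± 0.32.

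Of the 4 genes of another or less settled route, RAB23, a negative regulator of Hedgehog signalling, had 11.80, 11.92 and 11.88 in saline ascites and 11.58, 11.95 and 11.49 in CpG ascites, a log2 change of -0.20 ± 0.15 (SE). RAB40C and RAB40B belong to the Rabs with a SOCS box, which joins them to ubiquitin ligases, and had -0.20 ± 0.19 and 0.19 ± 0.19. RAB40C had 11.08 on CpG ascites replicate 1 and 11.64 to 11.79 elsewhere, and its change was 0.01 without that array. RAB40B had 11.01, 11.09 and 10.41 in CpG ascites and 10.62 to 10.69 in saline ascites, and its change was 0.058 without CpG ascites replicate 2 and 0.40 without replicate 3 (limma adjusted p = 0.311). RAB28, a Rab of cilia, had -0.04 ± 0.18.

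Across the family the CpG arrays were less alike than the saline arrays. The SD over 3 arrays was larger in CpG ascites for 31 of the 39 genes (79.5%, against 76.8% of all genes), with a median SD of 0.232 in CpG ascites and 0.104 in saline ascites. CpG ascites replicate 1 gave the lowest or the highest of the 6 values in 21 of the 39 genes (53.8%, against 57.1% of all genes), and CpG ascites replicate 3 in 17 (43.6%, against 40.7%). The Rab genes therefore varied over the arrays about as all genes did. The number of members below their saline mean was 25, 20 and 24 on CpG ascites replicates 1, 2 and 3. On saline ascites replicates 1, 2 and 3 it was 13, 18 and 21. No such count over all genes stands beside these numbers, so they are not read as a result about the family.

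**Figure D3:**
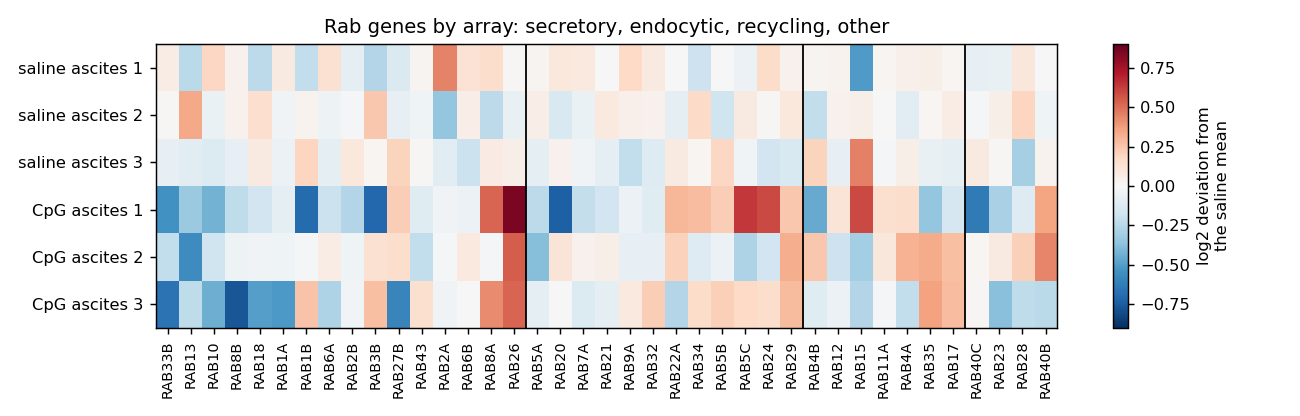
Log2 deviation from the saline mean for each of the 39 measured Rab genes (columns, by route and then by change) on each of the 6 arrays (rows), from blue (lower) to red (higher). RAB26 is red on all 3 CpG arrays, whereas RAB5C, RAB24, RAB20 and RAB40C stand out on CpG ascites replicate 1 alone.

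Of the measured Rab genes, 9 had 2 or more probes kept, 21 probes in all, and in 5 of these genes the probes differed in sign. The 2 probes of RAB5C, annotated to different transcripts, went opposite ways on CpG ascites replicate 1, with 11.24 on one and 9.28 on the other, against saline ranges of 10.55 to 10.69 and 10.04 to 10.13. The second probe had a log2 change of -0.20 ± 0.28 (SE). RAB12 had a dimmer probe at 6.65, 6.62 and 6.78 in saline ascites and 7.34, 6.81 and 6.91 in CpG ascites. Its groups did not overlap and its change was 0.34 ± 0.17, while the probe that stands for the gene had -0.04.

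RAB2A likewise had a dimmer probe with 8.34, 8.40 and 8.27 in saline ascites and 8.68, 8.57 and 8.49 in CpG ascites, a change of 0.25 ± 0.12 (SE), against -0.03 on its brighter probe. With these probes counted, 4 of 51 Rab probes lay apart on the higher side (10.9% of all probes) and 3 on the lower side (9.82%). RAB24 had 5 probes with changes from -0.16 to 0.23, so no single direction describes it. The second probe of RAB4B had -0.42 ± 0.30, with 6.68 on CpG ascites replicate 1 against 7.71 to 7.99 elsewhere, and that of RAB6A had -0.31 ± 0.23, or -0.55 ± 0.16 without CpG ascites replicate 1 (limma adjusted p = 0.181). RAB23, RAB28 and RAB43 had second probes at -0.03 ± 0.17, 0.08 ± 0.17 and -0.17 ± 0.21.

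**Figure D4:**
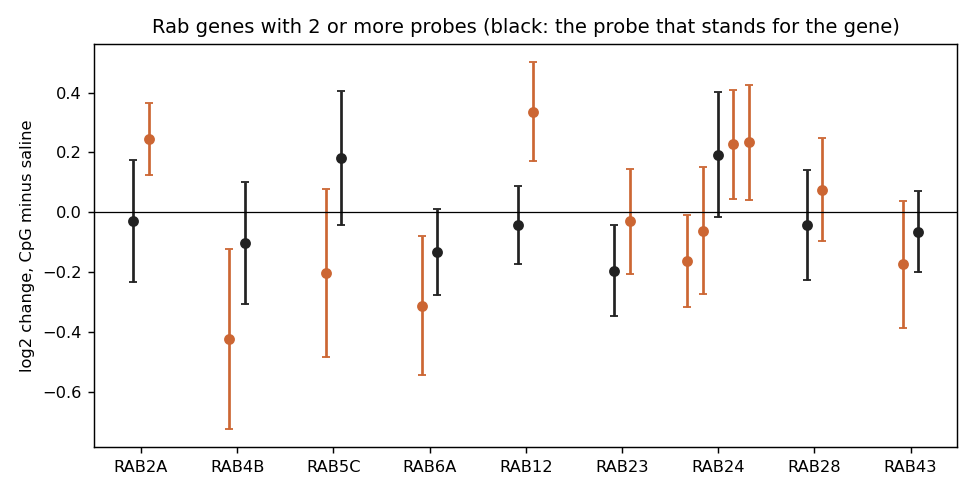
Log2 change (CpG minus saline ascites) with its standard error for each kept probe of the 9 Rab genes with 2 or more probes; black marks the probe with the highest mean intensity, which stands for the gene. Probes of RAB2A, RAB5C, RAB12, RAB24 and RAB28 lie on both sides of 0.

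The remaining 23 Rab genes had no probe above the filter, and their log2 intensities ran from 4.61 to 6.75, where the lowest signal above background was 6.49 to 6.67 per array. Of these, 20 were above background on no array. They included RAB25, an epithelial recycling Rab studied in ovarian carcinoma, at 5.18 to 5.76, as well as RAB11B at 4.78 to 5.94, RAB14 at 5.24 to 6.08 and RAB31 at 4.85 to 5.19. By route, 10 were secretory, 4 endocytic, 3 recycling and 5 of another route, and RAB6D was in no route list. A probe at background gives only an upper limit on its signal, so expression of the 20 genes was not measurable here. The other 3 genes, RAB27A, RAB30 and RAB36, were above background on 1 or 2 arrays, too few for the filter.

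The proteins that load, activate and read Rabs were followed in lists of known members. Of 6 measured genes of Rab prenylation and membrane extraction, 1 had a higher and 0 a lower value with an unadjusted limma p under 0.05 (6.66% and 4.92% of all genes), with a median log2 change of -0.08. That gene was RABAC1, which encodes the prenylated Rab acceptor, at 11.15, 11.19 and 11.07 in saline ascites and 11.51, 11.32 and 11.48 in CpG ascites, a change of 0.30 ± 0.12 (SE). It no longer had such a p without CpG ascites replicate 1, where the list held 0 genes higher and 0 lower, with a median of 0.0022. GDI2, a GDP dissociation inhibitor, had -0.18 ± 0.12 and FDPS, of isoprenoid synthesis, -0.13 ± 0.14. Of 36 exchange factor genes, which load Rabs with GTP, 1 was higher and 1 lower at that level, with a median of -0.00050, or 1 higher and 2 lower with a median of -0.021 without CpG ascites replicate 1. TRAPPC10, a subunit of a TRAPP complex, had -0.37 ± 0.12, HPS4, part of the exchange factor of RAB32 and RAB38, 0.37 ± 0.15, and DENND4A, an exchange factor of RAB10, -0.42 ± 0.19.

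Of 26 genes of GTPase-activating proteins, which switch Rabs off, 2 had a higher and 0 a lower value at an unadjusted limma p under 0.05 (6.66% and 4.92% of all genes), with a median log2 change of 0.0041. Without CpG ascites replicate 1 the counts were again 2 and 0, against 6.25% and 6.74% of all genes, with a median of 0.092. TBC1D5, which acts on RAB7A with the retromer complex, had 5.95, 6.64 and 6.29 in saline ascites, above background on 1 of those arrays, and 7.08, 7.07 and 7.08 in CpG ascites. It passed the filter through the CpG arrays and 2 of its saline values lay at background, so its measured difference of 0.79 ± 0.18 (SE; limma adjusted p = 0.193), and its place in the count of 2, are given as a description only. TBC1D14, a regulator of RAB11 membranes in autophagy, had 0.43 ± 0.17 and GRTP1 0.27 ± 0.12. Of 42 effector genes, 3 were higher and 2 lower at that level, with a median of 0.0078, or 4 higher and 4 lower with a median of -0.030 without CpG ascites replicate 1. BICD1, a dynein adaptor that binds RAB6, had 7.67, 7.70 and 7.45 in saline ascites and 7.20, 7.16 and 6.55 in CpG ascites, a change of -0.63 ± 0.20. OCRL, an inositol phosphatase that binds several Rabs, had 0.43 ± 0.15 on its brighter and 0.89 ± 0.26 on its second probe, and RILPL2, an effector of RAB8A and RAB10 when LRRK2 has phosphorylated them, 0.36 ± 0.14. When CpG ascites replicate 1 was left out, HPS4 and TBC1D14 no longer had an unadjusted p under 0.05. DENND4A (log2 change -0.60) and TBC1D2 (0.42) were among the genes that then had such a p. The 2 higher genes of GTPase-activating proteins were thus not the same pair. In these 4 lists 0 genes passed the adjusted test in limma.

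Promoter sequences of the Rab genes whose groups did not overlap are shown because the main values above concern these genes, and RefSeq sequences of build GRCh38.p14 were at hand for RAB5A, RAB10 and RAB29. Capitals mark the E-box core CACGTG, a motif bound by TFEB, a regulator of lysosome and autophagy genes, and the GC box GGGCGG, a motif bound by SP1, each on either strand, and in the sequences shown the 2 motifs did not overlap. The 250 bases before the start of RAB5A (chr3:19946847-19947096, plus strand) and of RAB10 (chr2:26033834-26034083, plus strand) and 30 bases around the E-box core of RAB29 (chr1:205775446-205775475, minus strand) read:
RAB5A: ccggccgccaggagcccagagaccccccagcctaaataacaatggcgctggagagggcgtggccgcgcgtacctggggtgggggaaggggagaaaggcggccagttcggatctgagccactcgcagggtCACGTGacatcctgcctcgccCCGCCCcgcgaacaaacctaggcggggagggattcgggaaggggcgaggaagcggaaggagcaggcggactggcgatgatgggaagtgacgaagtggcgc
RAB10: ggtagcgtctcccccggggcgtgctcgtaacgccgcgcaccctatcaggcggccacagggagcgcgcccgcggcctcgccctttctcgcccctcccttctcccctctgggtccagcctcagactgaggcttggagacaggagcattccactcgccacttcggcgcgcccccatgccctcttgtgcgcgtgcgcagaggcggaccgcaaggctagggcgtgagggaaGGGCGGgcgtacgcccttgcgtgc
RAB29: caggcaaccctgCACGTGacgcttgcggag

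The E-box core of RAB5A begins 121 bases before the start and that of RAB29 19 bases after it. RAB5A had lower and RAB29 higher values in CpG ascites. In windows of 300 bases, CACGTG was found in 5 of 32 measured Rab genes with a sequence (RAB4A, RAB5A, RAB21, RAB24 and RAB29), or 15.6%, and in 7.43% of all 27305 promoters. The GC box was found in 28 of the 32, or 87.5%, and in 44.6% of all promoters, a set that also holds promoters of genes not measured here. The CCAAT box, searched as CCAAT, was found in 9 of the 32, or 28.1%, and in 35.7% of all. A match describes the letters of the window and does not show that a factor binds there.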

How the data were processed

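RNA of 6 IGROV-1 cultures was measured on Illumina bead arrays. Per the file headers, the deposited raw table holds a non-normalized probe intensity per array. It also holds a detection p-value per probe and array, which the authors exported beside it, per the file headers; BeadStudio is named in the submitters' processing notes. The authors' processed values served as an alternative.

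Intensities were corrected with neqc (offset 16; control-probe background inferred from the detection p-values), quantile normalized, put on the log2 scale and tested with lmFit and eBayes in limma 3.58.1 (R 4.3.3), two-sided, CpG minus saline, with Benjamini-Hochberg adjustment over 13713 probes. Per gene the probe with the highest mean was used. Scripts were tested on simulated data with the probe spreads of these arrays. The adjusted test recovered 59% of log2 changes of 1 and 93% of log2 changes of 2, with 10 false calls. Smaller changes were not simulated, so a gene that did not pass may still differ. Leaving out an array changed the fit only.

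The Rab genes, routes and lists were chosen with earlier results of these data known. Named genes were members with an unadjusted p under 0.05, the 3 most intense and, where needed, the 2 with the smallest p per route, and the 3 with the smallest p per list. The values of all other members were chosen for print after they were seen. Alternatives covered background, scaling, filter, weights, trend, probe choice, block and left-out arrays.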

Additional observations from a re-analysis of the deposited data

Results flagged for a closer look

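In 2 Rab genes left out by the filter, 1 probe each was above background on CpG arrays and on 0 saline arrays, and their other probes were above background on no array. For RAB27A, a Rab of regulated exocytosis and melanosome transport, that probe was above background on 2 CpG arrays, with log2 intensities of 6.75, 6.67 and 6.50 in CpG ascites and 6.57, 6.23 and 6.18 in saline ascites, so the groups overlapped. For RAB36 it was above background on 1 CpG array, with 6.75, 6.16 and 5.91 in CpG ascites and 5.71, 5.80 and 5.80 in saline ascites. Its groups did not overlap, but all values except that of CpG ascites replicate 1 were at background. RAB30 showed the reverse, with its probe above background on 1 saline array and 0 CpG arrays. It had 6.59, 6.03 and 6.69 in saline ascites and 6.57, 6.03 and 6.42 in CpG ascites, so the groups overlapped. The values above background in these 3 genes lie close to the lowest signal above background, 6.49 to 6.67 per array.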

How the results depend on the processing

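No Rab probe passed the adjusted limma test under any of the 16 alternatives, and the lowest adjusted p of a Rab gene was 0.115. Of 622 values of single genes under these alternatives, 46 turned in sign, in 20 of the 39 genes. Of the 46, 7 turned with median scaling, which moved the median of all genes from 0.010 to 0.093. RAB26 had an unadjusted p under 0.05 in all 17 settings, the main one included, RAB33B in 15 and RAB10 in 9.

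The count of higher genes at that level was 1. It was 2 with normexp background, without background correction, in the authors' processed values and with a mean-variance trend. It was also 2 with probes above background on all 6 arrays and with probes averaged per gene. With no filter it was 3 (RAB26, RAB29 and RAB36), of which RAB36 was above background on 1 array. The count of lower genes was 2, but 0 with median scaling, 1 with array weights and 1 with the replicate block. With each array left out in turn the counts ran from 1 to 3 higher and 1 to 4 lower. The 3 was without CpG ascites replicate 1, against 6.25% of all genes, and the 4 without CpG ascites replicate 2. For the other settings no share of all genes stands beside these counts, so they are not read as a result about the family. With median scaling the median log2 change was 0.041 for all Rab genes, -0.045 for secretory and 0.15 for endocytic genes, where the median of all genes was 0.093. Relative to all genes the Rab median was -0.052 with that scaling and -0.054 without it. That of recycling genes was -0.015 with no filter. The secretory median ran from -0.22 to -0.073 with each array left out.

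With median scaling the sign turned for RAB12 (0.041), RAB21 (0.017), RAB27B (0.014), RAB28 (0.054), RAB2A (0.067), RAB43 (0.031) and RAB9A (0.075), none above the all-gene median of 0.093 under that scaling. With array weights it turned for RAB15 (-0.19), RAB28 (0.031), RAB2A (0.0016), RAB3B (0.047), RAB4B (0.044) and RAB5C (-0.0097), and with probes averaged for RAB12 (0.15), RAB28 (0.016), RAB2A (0.11) and RAB5C (-0.011). With each array left out, the sign turned for RAB12 (-0.12 to 0.031), RAB15 (-0.28 to 0.24), RAB1B (-0.35 to 0.12), RAB20 (-0.37 to 0.056), RAB22A (-0.027 to 0.25), RAB24 (-0.0070 to 0.38), RAB27B (-0.22 to 0.19), RAB28 (-0.19 to 0.055), RAB2A (-0.20 to 0.19), RAB32 (-0.091 to 0.073), RAB35 (-0.0051 to 0.35), RAB3B (-0.28 to 0.20), RAB40C (-0.31 to 0.013), RAB43 (-0.17 to 0.016), RAB4A (-0.031 to 0.24), RAB4B (-0.28 to 0.069), RAB5C (-0.047 to 0.41), RAB6B (-0.087 to 0.073) and RAB9A (-0.12 to 0.075). The cause of these turns was not tested.

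Same-numbered samples deviated with correlations of -0.102, 0.0144 and -0.0213, so the numbers were not taken to pair the samples. With the replicate block 0 Rab probes passed and the lowest adjusted p was 0.344. The chip as a block was not run. Probes near background give only a bound.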

Other observations

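Another family of membrane traffic GTPases and a tether were measured beside the Rab genes. Of 8 genes of the exocyst, the complex that tethers secretory vesicles to the plasma membrane, 1 was higher and 0 lower with an unadjusted limma p under 0.05 (6.66% and 4.92% of all genes), with a median log2 change of 0.13. Without CpG ascites replicate 1, 1 was higher and 1 lower (6.25% and 6.74% of all genes), with a median of 0.025. In the ARF, ARL and SAR family, ARF and SAR proteins recruit vesicle coats. Of its 11 genes, 0 were higher and 1 lower with all arrays, with a median of -0.09. Without CpG ascites replicate 1, 0 were higher and 2 lower, with a median of -0.026, against the same shares of all genes. In limma 0 genes of these lists passed the adjusted test.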
